A study of Mus musculus with 4 samples.

Results

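The suppressor of cytokine signaling (SOCS) family (Socs1 to Socs7 and Cish) and the IL-7 receptor gene Il7r were examined for binding of the transcription factor MIZ-1 in splenic B cells. These 9 genes, of 21938 protein-coding genes annotated on mm10, were taken by name, and every peak from 2000 bp before to 1000 bp after a start site (the promoter window) or in the gene body was counted. IL-7 signals through the IL-7 receptor α chain, encoded by Il7r, and the common γ chain to the kinases JAK1 and JAK3, which phosphorylate STAT5. Among the genes that STAT proteins switch on are Cish and several Socs genes, whose products share an SH2 domain and a SOCS box and restrain cytokine receptors by blocking JAK kinases, occupying receptor sites or recruiting an ubiquitin ligase. The IL-7 receptor is best known for its part in early B cell development in the bone marrow, where earlier work has linked MIZ-1 to Socs1, while mature splenic B cells depend on it far less.

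Chromatin immunoprecipitation with sequencing (ChIP-seq) was performed with the anti-MIZ-1 antibody H-190 on B220+ splenocytes (cells of the spleen that carry the B lineage marker B220). One genotype was wild type (MIZ-1WT). The other (MIZ-1DPOZ) came from MB1-Cre x Miz-1floxPOZ mice, in which Cre driven from the B cell gene Cd79a removes the POZ domain of MIZ-1 in B lineage cells, so that a truncated protein with its zinc fingers is made. Both lines were on a C57BL/6 background, B220+ cells are not a single B cell subset, and the study describes fewer follicular B cells in MIZ-1DPOZ spleens, so that cell composition and binding per cell cannot be told apart. Each genotype had 1 ChIP and 1 input library, 4 libraries in all, so no difference between genotypes could be set against the spread between mice and no test was made.

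In all, 34209 peaks were listed for MIZ-1WT and 78357 for MIZ-1DPOZ. The number of fragments over each summit (the summit pileup), recovered from the deposited scores, had a median of 9 for MIZ-1WT (quartiles 8 and 11) and of 12 for MIZ-1DPOZ (10 and 16). The MIZ-1DPOZ library was estimated to be 1.34 times deeper, and the lowest pileup that entered its list was 6, against 5 for MIZ-1WT. Intervals given below are 95% intervals and cover counting error only.

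Of the 9 genes, 5 had a promoter peak in MIZ-1WT cells (Socs2, Socs3, Socs4, Socs5 and Socs7), against 30.9% of all protein-coding genes. Among MIZ-1DPOZ peaks 7 genes had one, the same 5 with Socs1 and Socs6, against 48.7% of all genes. Thus 5 of the 9 genes, all those of the MIZ-1WT list, were marked in both lists, against 26.7% of all genes. These 5 of 9 also had at least 1 pair of overlapping promoter peaks, against 23.6% of all genes. Sharing was usual among all genes with a MIZ-1WT promoter peak. Of 6773 such genes, 5847 had a promoter peak in both lists, and 5173 of these had overlapping peaks. Peak by peak, 5 of the 6 MIZ-1WT and 5 of the 11 MIZ-1DPOZ promoter peaks overlapped one of the other list, at Socs5 by 11 bp only. With the MIZ-1DPOZ list held to its 34209 peaks of highest −log10 q, 4 genes had a MIZ-1DPOZ promoter peak (Socs2, Socs3, Socs4 and Socs6) and 3 were in both lists. With both lists held to a −log10 q of 5 or more, 1 gene remained for MIZ-1WT, 5 for MIZ-1DPOZ and 0 for both. That limit left lists of unlike length, 9709 MIZ-1WT and 45857 MIZ-1DPOZ peaks. Shares over all genes were not counted at either setting. The part of list length in the larger MIZ-1DPOZ number was not tested. As listed, Socs1 and Socs6 had a promoter peak in the MIZ-1DPOZ list only, as did 22.0% of all genes. Cish and Il7r had none in either list, which held for 47.1% of all genes. Counting gene bodies too, the same 7 genes had a peak in each list, against 43.9% of all genes for MIZ-1WT and 65.3% for MIZ-1DPOZ. The lists held 10 and 16 peaks at these genes, 6 and 11 of them at promoters.

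**Figure D1:**
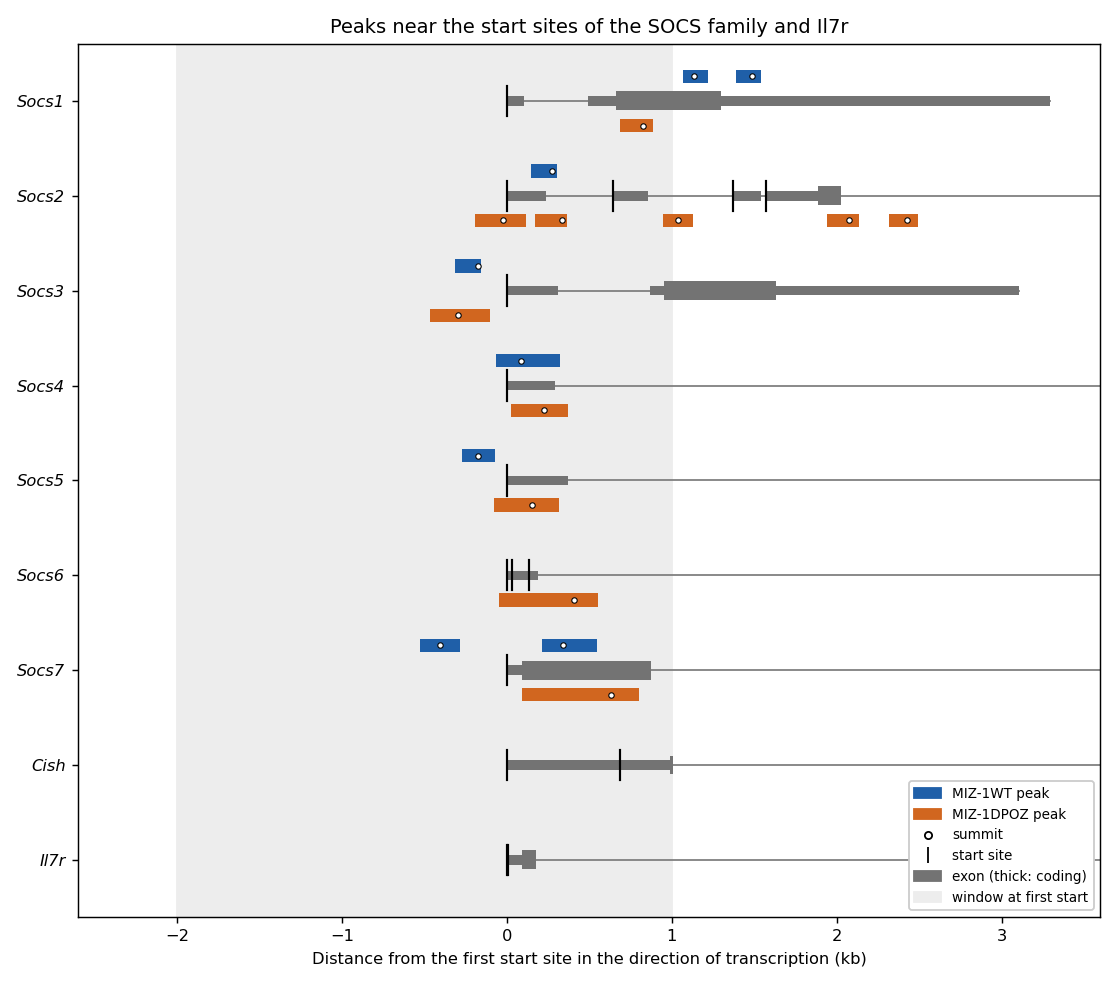
Position of each peak relative to the first start site of the gene, in kb along the direction of transcription, with MIZ-1WT peaks above and MIZ-1DPOZ peaks below each gene model. Peaks of both lists lie close to the start sites of Socs2, Socs3, Socs4, Socs5 and Socs7, Socs1 peaks lie inside the transcribed region, and Cish and Il7r are empty. The gray field is the window at the first start site, and gene-body peaks farther downstream (Socs5, Socs6, Socs7) are outside the plot.

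Socs1 encodes a direct inhibitor of JAK kinases. Its single start site lies at position 10785536 on the minus strand of chromosome 16, and its whole coding sequence sits in 1 exon. The 3 peaks of the gene, none overlapping another, all lay downstream of the start. In the MIZ-1DPOZ list, the peak at chr16:10784650-10784852 had 15 fragments (8.40 to 24.7) and a fold enrichment of 4.80 over background, with its summit in the coding exon 825 bp after the start. In the MIZ-1WT list, 1 peak at chr16:10784317-10784465 had 10 fragments (4.80 to 18.4), a fold enrichment of 4.84 and a summit in the same coding exon, 1135 bp after the start. A further MIZ-1WT peak at chr16:10783997-10784144, also with 10 fragments and a fold of 4.94, had its summit in the 3′ untranslated exon at 1484 bp. The nearer MIZ-1WT peak began 1071 bp after the start and 184 bp from the MIZ-1DPOZ peak. Socs1 was thus a MIZ-1DPOZ-only promoter by the position of the window edge, and with a window of 2000 bp to each side it counted in both lists. The 2 coding-exon summits lay 310 bp apart. They are shown because both fell in coding sequence dense in CpG, with 25 CpG within 201 bp of the MIZ-1DPOZ summit and 30 around the MIZ-1WT summit, against a median of 20 and 23 over all promoter peaks of those lists. The MIZ-1WT peaks of Socs1 are gene-body peaks, so that the promoter median is of another kind of peak. The 3′ untranslated MIZ-1WT summit, which is not shown, had only 4 CpG. Capitals mark each CpG, and both sequences are written 5′ to 3′ on the minus strand of mm10.
Socs1 MIZ-1DPOZ summit, chr16:10784671-10784751: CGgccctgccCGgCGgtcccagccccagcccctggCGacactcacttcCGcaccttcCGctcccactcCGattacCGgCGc
Socs1 MIZ-1WT summit, chr16:10784361-10784441: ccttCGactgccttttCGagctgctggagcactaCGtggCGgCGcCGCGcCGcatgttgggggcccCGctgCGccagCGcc

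Socs2, which encodes a feedback inhibitor best known for restraining growth hormone signaling, had the most peaks. Its 4 start sites in the GENCODE basic annotation span chr10:95415283-95416857 on the minus strand. The MIZ-1WT list held 1 peak there, at chr10:95416550-95416711, with 11 fragments (5.49 to 19.7), a fold of 5.15 and its summit in the intron 271 bp after the first start. The MIZ-1DPOZ list held 5, their summits spread over 2.45 kb. The peak over the first start site, at chr10:95416741-95417050, had 16 fragments (9.15 to 26), a fold of 5.47 and its summit 23 bp upstream. The next, at chr10:95416495-95416689, was the only one to overlap the MIZ-1WT peak, with 11 fragments (5.49 to 19.7) and a fold of 3.82. The other 3 had their summits in introns of the basic annotation, at chr10:95415731-95415909 (12 fragments, fold 4.00), chr10:95414722-95414915 (13 fragments, fold 4.36) and chr10:95414361-95414542 (16 fragments, fold 5.26), and the second of these also covered the end of a coding exon. All 81 bases around the summit of the first are untranslated exon in some coding transcript of GENCODE or RefSeq. The summits of the overlapping pair were 63 bp apart, and the peak over the first start lay 29 bp from the edge of the MIZ-1WT peak. The start site of the long noncoding RNA 5730420D15Rik lies 518 bp from that of Socs2 on the opposite strand, and its promoter window held the MIZ-1WT peak and 3 of the MIZ-1DPOZ peaks. These peaks could therefore not be assigned to Socs2 alone. The sequence at the MIZ-1DPOZ summit of the overlapping pair is shown as the one place at Socs2 where the lists met, with 25 CpG within 201 bp, and capitals mark each CpG on the minus strand.
Socs2 MIZ-1DPOZ summit, chr10:95416483-95416563: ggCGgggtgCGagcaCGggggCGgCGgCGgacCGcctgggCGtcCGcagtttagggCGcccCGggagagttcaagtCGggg

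Socs3 encodes the inhibitor of receptors that signal through gp130, and like SOCS1 it blocks JAK catalytic activity. It had 1 promoter peak in each list. The MIZ-1WT peak at chr11:117969344-117969503 had 10 fragments (4.80 to 18.4), a fold of 4.52 and a summit 177 bp upstream of the GENCODE start. It lay whole within the MIZ-1DPOZ peak at chr11:117969290-117969655, which had 16 fragments (9.15 to 26), a fold of 5.56 and a summit 298 bp upstream. RefSeq places the start of Socs3 180 bp farther upstream, and measured from that start the MIZ-1WT summit lay at 3 bp and the MIZ-1DPOZ summit 118 bp before it. All 81 bases around each summit are untranslated exon in some coding transcript of GENCODE or RefSeq.

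Socs4 to Socs7 encode the members with long amino-terminal regions, which act mainly on receptor tyrosine kinase and insulin signaling. At Socs4, the MIZ-1WT peak at chr14:47276868-47277256 had 9 fragments (4.12 to 17.1), a fold of 5.38 and a summit in the 5′ untranslated exon 83 bp after the start. The overlapping MIZ-1DPOZ peak at chr14:47276954-47277299 had 14 fragments (7.65 to 23.5), a fold of 6.39 and its summit 223 bp after the start. Socs4 shares this region with Wdhd1, a DNA replication gene whose start site lies 74 bp away on the opposite strand, and with the antisense gene Gm49150. The summits lay 157 and 297 bp upstream of the Wdhd1 start, so the peaks could belong to either gene.

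At Socs5, the MIZ-1WT promoter peak at chr17:87107406-87107609 had 8 fragments (3.45 to 15.8), a fold of 4.84 and a summit 173 bp upstream of the start. The MIZ-1DPOZ peak at chr17:87107599-87107997 had 9 fragments (4.12 to 17.1), a fold of 4.11 and a summit 152 bp downstream. These were counted as overlapping through 11 bp only, with summits 325 bp apart on opposite sides of the start site. The closest match between the lists was instead found inside the gene. In the intron, 17.9 kb from the start, the MIZ-1WT peak at chr17:87125488-87125654 (10 fragments, fold 5.91) and the MIZ-1DPOZ peak at chr17:87125495-87125685 (12 fragments, fold 5.54) had summits 1 bp apart. A further MIZ-1DPOZ peak in the same intron of the basic annotation had 12 fragments in a window that was 55.7% repeat-masked. All 81 bases around its summit are untranslated exon in some coding transcript of GENCODE or RefSeq. The shared intron summit is shown because it was as rich in CpG as a promoter, with 21 CpG and 75.1% GC within 201 bp, and because a stretch of 19 bases occurs again 34 bases farther on. Capitals mark each CpG on the plus strand.
Socs5 intron summit, MIZ-1WT, chr17:87125522-87125602: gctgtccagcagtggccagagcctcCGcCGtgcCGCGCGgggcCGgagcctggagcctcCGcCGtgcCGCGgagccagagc

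Socs7 had the highest promoter pileup of the family in the MIZ-1WT list. Its peak at chr11:97362765-97363099 had 12 fragments (6.20 to 21.0), a fold of 5.80 and a summit in the first coding exon 341 bp after the start. It lay whole within the MIZ-1DPOZ peak at chr11:97362641-97363355, the widest of the family at 715 bp, which had 11 fragments (5.49 to 19.7), a fold of 4.29 and a summit 633 bp after the start. A second MIZ-1WT peak, at chr11:97362026-97362269 and 408 bp upstream, had 9 fragments (4.12 to 17.1) and a fold of 4.52, and had no MIZ-1DPOZ partner. The MIZ-1DPOZ list also held 2 gene-body peaks. The higher, in an intron at chr11:97376163-97376367 with 14 fragments and a fold of 6.39, had no CpG within 201 bp. The other gene-body peaks of the family held 4 to 30. The last Socs7 peak was in the 3′ untranslated exon with 12 fragments and held 5 CpG. The Socs7 summits outside the untranslated exons are shown on the plus strand with each CpG in capitals, to set the CpG-rich coding exon beside the intron, where a unit of 32 bases is repeated in tandem and sequences of 50 bases occurred 4 times in the genome.
Socs7 MIZ-1WT upstream summit, chr11:97362103-97362183: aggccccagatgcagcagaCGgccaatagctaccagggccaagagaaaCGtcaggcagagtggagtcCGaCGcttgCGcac
Socs7 MIZ-1WT coding-exon summit, chr11:97362852-97362932: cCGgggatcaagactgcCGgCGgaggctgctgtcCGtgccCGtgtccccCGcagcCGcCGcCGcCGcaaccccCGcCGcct
Socs7 MIZ-1DPOZ coding-exon summit, chr11:97363144-97363224: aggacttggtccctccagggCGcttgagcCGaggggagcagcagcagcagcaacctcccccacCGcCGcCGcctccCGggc
Socs7 MIZ-1DPOZ intron summit, chr11:97376238-97376318: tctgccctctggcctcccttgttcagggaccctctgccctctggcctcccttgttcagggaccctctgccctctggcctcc

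Socs6 carried the highest promoter peak of the family. In the MIZ-1DPOZ list, chr18:88893797-88894397 had 18 fragments (10.7 to 28.4), a fold of 8.09 and a −log10 q of 12.1, with its summit in the first intron 271 bp after the nearest of 3 start sites. No MIZ-1WT peak lay in the promoter window, and the nearest MIZ-1WT peak to a start site was 23.9 kb away. That peak, at chr18:88870090-88870269 in the coding exon, had 6 fragments (2.2 to 13.1), a fold of 3.76 and a −log10 q of 1.76, the lowest of the 10 MIZ-1WT peaks. It overlapped a MIZ-1DPOZ peak at chr18:88870001-88870538 with 12 fragments, and sequences of 50 bases around these summits occurred up to 2 times in the genome, so that reads there could belong to another locus.

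Cish, the family member that competes for STAT5 docking sites, and Il7r had no peak at the promoter or in the gene body of either list. The closest MIZ-1WT peak lay 43.3 kb from Cish (chr9:107296026-107302784, plus strand) and 62.5 kb from Il7r (chr15:9505788-9529835, minus strand). In the MIZ-1DPOZ list the closest peak was 5.11 kb from Cish and 12.5 kb from Il7r. At these depths a site below 5 or 6 fragments would not be listed, so the lists give no level for either promoter.

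**Figure D2:**
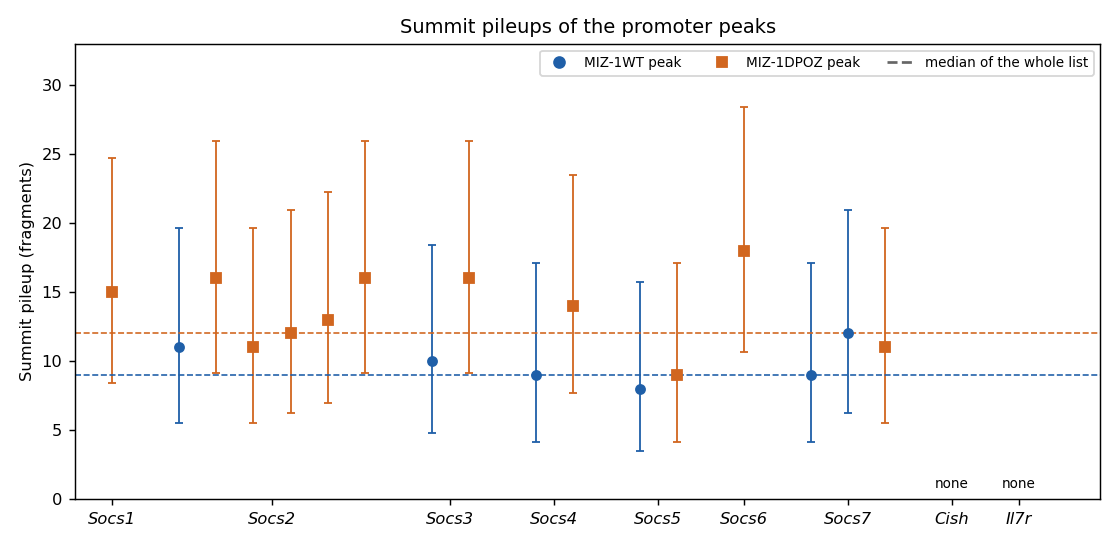
Summit pileup in fragments of every promoter peak, by gene, with 95% Poisson intervals that cover counting error only, and within a gene in order of position. The MIZ-1WT peaks hold 8 to 12 fragments and the MIZ-1DPOZ peaks 9 to 18, around the medians of the whole lists (dashed, 9 and 12), and the intervals overlap throughout.

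The promoter peaks of the family were close in height to the rest of each list. They held 8 to 12 fragments for MIZ-1WT (median 9.5) and 9 to 18 for MIZ-1DPOZ (median 14), and within each list the intervals of all of them overlapped. The local background under them was not uniform. At the peaks of Socs1, Socs2 and Socs3 it was 1.23 to 1.44 fragments for MIZ-1WT and 2.06 to 2.34 for MIZ-1DPOZ. At the Socs7 promoter it was 1.21 and 1.24 for MIZ-1WT and 1.80 for MIZ-1DPOZ, and at the Socs5 promoter 0.860 and 1.44. At Socs4 and Socs6 it equalled the most frequent value of each list (0.860 and 1.35). The MIZ-1WT values of Socs1 and Socs6 are those of gene-body peaks. The same pileup gave a lower fold where the background was higher.

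Where both lists held a peak, their heights were compared after dividing the MIZ-1DPOZ pileup by the depth ratio of 1.34. The resulting ratio (MIZ-1DPOZ over MIZ-1WT) was 1.19 (0.509 to 2.94) at Socs3 and 1.16 (0.468 to 3.04) at Socs4. It was 0.839 (0.287 to 2.50) at the Socs5 promoter, 0.746 (0.293 to 1.90) at Socs2 and 0.684 (0.273 to 1.69) at Socs7. In the gene bodies it was 0.895 (0.354 to 2.31) at Socs5 and 1.49 (0.518 to 4.84) at Socs6. Each of the 7 intervals included 1, so no change in height was detectable at this depth. The interval that was narrowest in absolute terms, at Socs7, still ran from 0.273 to 1.69. Over the 5173 protein-coding genes with overlapping promoter peaks, the median ratio was 1.07 (quartiles 0.839 and 1.31).

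**Figure D3:**
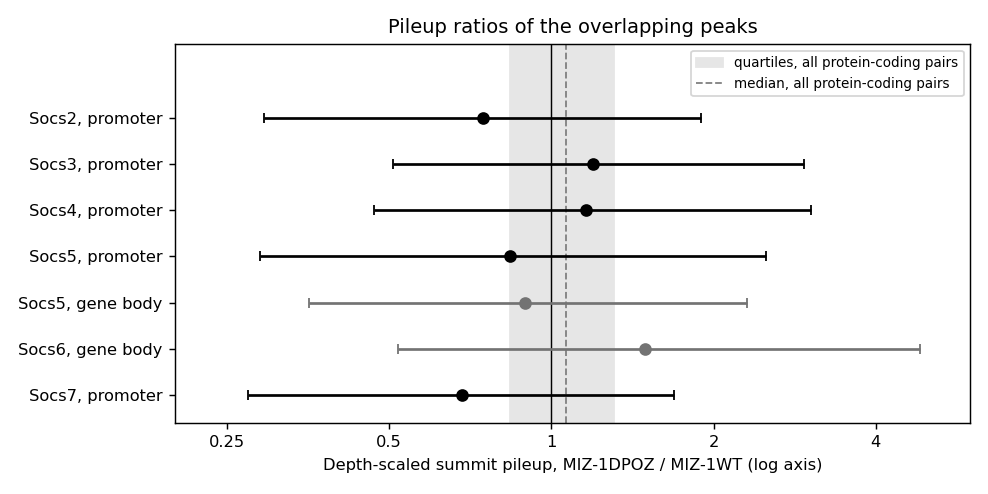
Ratio of the depth-scaled MIZ-1DPOZ pileup to the MIZ-1WT pileup on a log axis for the 7 overlapping pairs, with 95% binomial intervals that cover counting error only. All 7 intervals cross 1, and the gray band and dashed line give the quartiles (0.839 and 1.31) and the median (1.07) over 5173 protein-coding genes.

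Overlap between the lists was also described peak by peak. Of the 10 MIZ-1WT peaks at the 9 genes, 7 (70.0%) overlapped a MIZ-1DPOZ peak, against 58.5% of MIZ-1WT peaks at all protein-coding genes. Of the 16 MIZ-1DPOZ peaks, 7 (43.8%) overlapped a MIZ-1WT peak, against 25.6%. These shares were not matched for the kind of peak. Promoter peaks were 6 of the 10 and 11 of the 16 here, against 7584 of 16802 (MIZ-1WT) and 13152 of 36914 (MIZ-1DPOZ) at all protein-coding genes. The 3 MIZ-1WT peaks without a partner were both Socs1 peaks and the upstream Socs7 peak. Only 3 of the overlapping pairs, those at Socs2, in the Socs5 intron and in the Socs6 coding exon, had summits within 100 bp of each other. At Socs3, Socs4, Socs5 and Socs7 the promoter summits were 121 to 325 bp apart.

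The genes with and without promoter peaks differed in base composition. In the 300 bp from 250 before to 50 after the start sites (averaged where a gene has several), GC content was 62.1% at Socs2, 63.3% at Socs1, 69.0% at Socs3, 70.3% at Socs4, 70.8% at Socs6, 77.7% at Socs5 and 81.0% at Socs7. It was 51.0% at Cish and 45.0% at Il7r, the 2 genes without a peak, whose start sites held 9.5 and 2 CpG on average against 18 to 44 at the other 7. All protein-coding genes were split into 10 classes by the averaged GC content. In the highest class, which holds Socs4, Socs5, Socs6 and Socs7, 76.6% of genes had a MIZ-1WT promoter peak and 91.2% a MIZ-1DPOZ one. In the eighth, with Socs1 and Socs2, the shares were 45.4% and 70.1%. In the fourth, with Cish, they were 16.1% and 34.8%, and in the second, with Il7r, 7.57% and 15.5%. The part of base composition in the absence of peaks at Cish and Il7r was not tested.

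**Figure D4:**
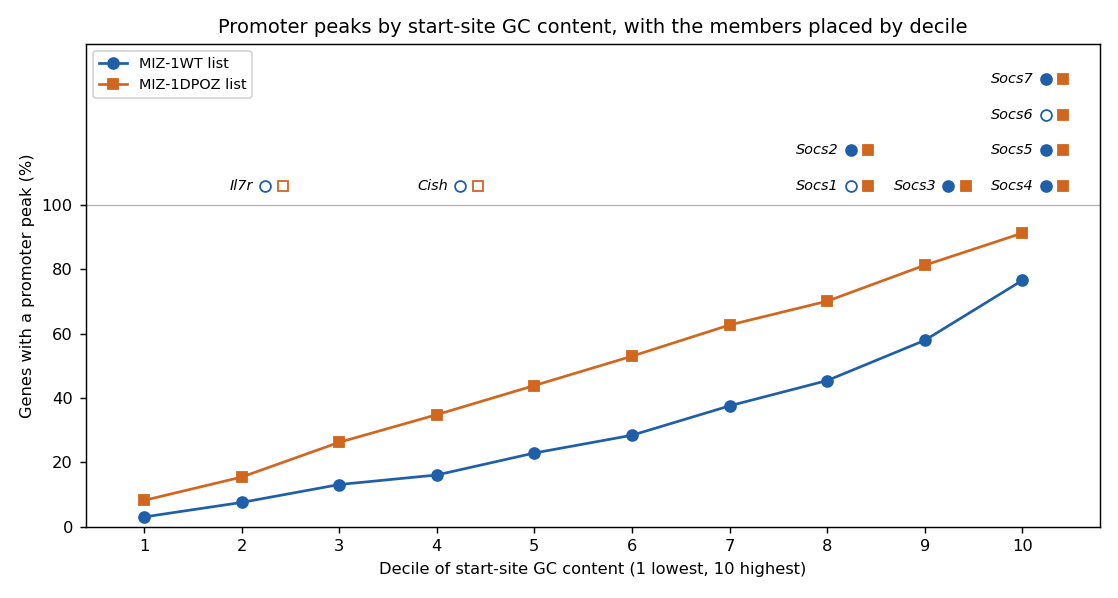
Percent of protein-coding genes with a promoter peak (y axis) in 10 classes of GC content at the start sites (x axis), with each examined gene placed above its class and filled symbols marking a promoter peak in the MIZ-1WT (circle) or MIZ-1DPOZ (square) list. The share climbs from 3.05% to 76.6% for MIZ-1WT and from 8.20% to 91.2% for MIZ-1DPOZ, and all genes with a peak sit in the top 3 classes.

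Short motifs were counted within 201 bp centered on the summits, on both strands. GGGCGG, the core of the GC box bound by SP1 and KLF factors, which itself contains a CpG, was present at 6 of 6 MIZ-1WT promoter peaks of the family and at 6 of 11 MIZ-1DPOZ promoter peaks, against 65.1% and 56.2% of all promoter peaks at protein-coding genes. CCGGAAG, a core of ETS factor sites, was present at 2 of 6 and 0 of 11, against 5.55% and 4.87%. The E-box CACGTG bound by MYC and MAX was at 0 of 6 and at 1 of 11, the Socs2 peak over the first start, against 4.63% and 3.79%. ATCGGT, part of a sequence reported for MIZ-1, was at 0 of 6 and 0 of 11, against 1.49% and 1.58%.

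TTCNNNGAA, the palindrome bound by STAT dimers including STAT5, was present at 3 of the 11 MIZ-1DPOZ promoter peaks, against 1.57% of all such peaks, and at 0 of 6 MIZ-1WT promoter peaks, against 1.32%. The 3 peaks were those at the first start of Socs2, which holds 2 matches, at Socs3 and in the coding exon of Socs7. The Socs2 matches lay 28 and 39 bp from the MIZ-1DPOZ summit, and the Socs3 and Socs7 matches 32 and 67 bp from theirs. No MIZ-1WT peak of the family covered a match. Over the whole promoter windows, Socs2 held 4 matches, Socs3 and Socs7 held 2 each, Socs1, Socs4 and Socs6 held 1 each and Socs5 held 0. Cish held 6 matches, including 2 adjacent pairs beside the second start site, with no peak, and Il7r held 4, also with no peak. The windows of a gene covered 3001 to 4575 bp. Matches over whole windows were not counted for all protein-coding genes, so these counts have no share to be set against. A match is a string in the genome and shows no bound factor. The matches are shown in capitals, 5′ to 3′ on the strand of the gene, because they compare the cytokine-response element across the family: Socs2 and Cish carry the same arrangement of 2 matches separated by ag, Socs2 under a MIZ-1DPOZ peak and Cish with none. Matches in exons that some transcript leaves untranslated are cut to 30 bases or fewer.
Socs2 pair, under the MIZ-1DPOZ peak, chr10:95416899-95416928: gcggaTTCCTGGAAagTTCCTGGAAagcgg
Cish pair near the second start, chr9:107296654-107296683: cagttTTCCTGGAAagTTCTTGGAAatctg
Cish second pair, chr9:107296762-107296791: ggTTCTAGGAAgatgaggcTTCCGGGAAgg
Socs3, under the MIZ-1DPOZ peak, chr11:117969502-117969530: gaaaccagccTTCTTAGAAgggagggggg
Socs3, outside both peaks, chr11:117969229-117969257: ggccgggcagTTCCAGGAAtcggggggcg
Socs7, under the MIZ-1DPOZ peak, chr11:97363222-97363280: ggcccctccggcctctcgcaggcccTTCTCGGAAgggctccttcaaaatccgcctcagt
Socs1, upstream and outside all peaks, chr16:10785956-10786014: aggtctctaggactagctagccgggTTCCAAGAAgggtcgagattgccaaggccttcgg
Il7r, upstream with no peak, chr15:9529985-9530043: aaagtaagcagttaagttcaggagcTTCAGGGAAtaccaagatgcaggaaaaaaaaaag

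In the RefSeq windows of 300 bases around the start (GRCm38.p6), which cover Socs1, Socs3, Socs4, Cish and Il7r, TTCNNNGAA occurred 2 times at Cish, 1 time at Socs3, 1 time at Il7r and not at Socs1 or Socs4, against 7.74% of 20150 windows with at least 1 match.

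To place the family in its pathway, 29 further genes of IL-7 and JAK-STAT signaling and of the ubiquitin ligase that the SOCS box recruits were counted in the same way. Of these, 16 had a promoter peak for MIZ-1WT, 16 for MIZ-1DPOZ and 13 for both, 11 of them with overlapping peaks. These are 55.2%, 55.2%, 44.8% and 37.9% of the list, against 30.9%, 48.7%, 26.7% and 23.6% of all protein-coding genes, so that the MIZ-1DPOZ share lay close to that of all genes. Each list alone held 3, and 10 genes had none. The median start-site GC content of the 29 genes was 61.7%, against 56% for all genes. In the seventh and eighth GC classes, which meet at that value, 37.6% and 45.4% of genes had a MIZ-1WT promoter peak. For MIZ-1DPOZ the shares there were 62.7% and 70.1%. At its promoter, the cytokine gene Il7 had a MIZ-1DPOZ peak only (13 fragments, fold 5.96), as did Jak3, which encodes the kinase paired with the common γ chain (12 fragments), although Jak3 also had 1 MIZ-1WT and 2 MIZ-1DPOZ peaks in its gene body. Il2rg, which encodes that chain, had no promoter peak. Jak1 had overlapping peaks with 9 fragments for MIZ-1WT and 15 for MIZ-1DPOZ. The STAT5 genes had them too, with 7 and 16 fragments at Stat5a and 9 and 20 at Stat5b. Of the ligase subunits bound through the SOCS box, the scaffold gene Cul5 had 10 and 13 fragments in peaks that did not overlap, Eloc had a MIZ-1DPOZ peak with 7, and Elob and Rnf7 had none. The highest MIZ-1WT pileups among the other genes were at Foxo1, a transcription factor gene that promotes Il7r expression (17 and 16 fragments), Jak2 (11 and 15) and the survival gene Mcl1 (11 and 11). Peaks were therefore present at the genes for JAK1 and both STAT5 proteins in both lists, and at neither gene of the receptor itself, Il7r and Il2rg. Start-site GC content was 45.0% at Il7r and 50.3% at Il2rg, against 58.7% at Jak1, 57.6% at Stat5a and 62.2% at Stat5b. In the GC classes of Il7r and Il2rg, 82.7% and 61.9% of genes had a promoter peak in neither list. In the class of Jak1 and Stat5a the share was 42.4%, and in that of Stat5b 22.7%. The part of base composition in this contrast was not tested.

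The genes most like Socs7 in the fold enrichment of their highest promoter peak in the 2 lists were Gm10447 and Shroom1, which had the same values (5.83 and 4.26), and Phox2a (5.72 and 4.30), among 5846 genes compared. In summed difference, 148 genes lay within 0.5 of Socs7, and the same count was not made around other genes.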

How the data were processed

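MIZ-1 ChIP-seq of B220+ splenocytes was analysed from 2 deposited peak lists, 1 per genotype, each called with its input library. The deposited fold enrichment at the summit is a ratio over the local background, and the authors also give −log10 of the p-value and of the q-value and an integer score derived from the q-value. The study's methods name Trimmomatic, bwa and MACS2, whereas the labels name Bowtie2 2.2.6 and MACS2 2.1.0 with build mm10; the q-value threshold and how duplicates or multiply aligned reads were treated are not given in the sources used here. Peaks were called on single libraries, so that depth and input sampling affect which sites are listed. The total read counts were not analysed here.

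Genes came from the GENCODE vM21 basic annotation of GRCm38 (the mm10 assembly), and the gene body was the span of the basic transcripts. Start sites and upstream positions refer to that annotation. In the full GENCODE set or RefSeq, bases around the summits given as upstream at Socs2, Socs3 and Socs5 lie in untranslated exons of coding transcripts. So do bases around some summits given as intronic at Socs2 and Socs5. Sequences came from RefSeq's GRCm38.p6 genome, and RefSeq start windows were found for 5 of the 9 genes. Coordinates are 1-based. A peak was counted when it overlapped the window or body by at least 1 bp. Whole-number summit pileups and backgrounds were solved from fold enrichment and −log10 p under the formulas of MACS2, to 0.001 in −log10 p, and 100% of 2000 simulated pileups were recovered. Of the deposited peaks, 99.97% (MIZ-1WT) and 99.99% (MIZ-1DPOZ) were solved, including all those described. The depth ratio was that of the most frequent background, 0.860 and 1.348, divided by the smallest peak width, 148 and 173 bp. Pileup intervals are exact Poisson and ratio intervals exact binomial, with the depth ratio held fixed. Genomic copies were counted for 5 sequences of 50 bases across each summit, and repeats were read from soft-masking.

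All 9 genes and each of their promoter peaks are named, with the highest gene-body peak of each gene and list. The genes, the pathway list and the motifs were chosen with earlier results of these data known. Alternatives were stricter score limits, other windows and overlap definitions, lists of equal length and another depth scaling. Scripts ran in Python 3.11.15 with scipy 1.17.1, pandas 2.3.3, numba 0.67.0, numpy 2.4.6 and matplotlib 3.10.9.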

Additional observations from a re-analysis of the deposited data

How the results depend on the processing

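With 1 library per genotype, the values depended mainly on the score limit. Values are given in the order of genes with a MIZ-1WT promoter peak, a MIZ-1DPOZ promoter peak and both (5, 7 and 5 as reported), then MIZ-1WT and MIZ-1DPOZ peaks (10 and 16), then overlapping peaks of each list (7 and 7). Under a −log10 q limit of 5, promoter peaks remained at 1 gene (Socs7) in the MIZ-1WT list and at 0 genes in both lists, with 2 MIZ-1WT peaks and 1 overlapping peak of each list, whereas 5 genes and 11 peaks remained for MIZ-1DPOZ. At a fold of at least 5 the values were 3, 4 and 2 genes, 4 and 10 peaks, and 2 and 2 overlapping. The −log10 q limit of 5 left 9709 MIZ-1WT and 45857 MIZ-1DPOZ peaks in the whole lists, and the fold limit 16171 and 42600. Shares over all genes were not counted under any of the alternatives. With the MIZ-1DPOZ list held to 34209 peaks, its promoter peaks were at 4 genes (Socs2, Socs3, Socs4 and Socs6), 3 genes were in both lists, the list held 10 peaks, and 4 peaks of each list overlapped. Under a reciprocal overlap of 50%, or summits within 100 bp, 3 peaks of each list were shared. A −log10 q limit of 2 left all 7 values within 1.5 times. Windows of 500 bp and summits inside the window, run for the 3 gene counts, did so too. So did 2 alternatives chosen after seeing the data, windows of 2000 bp to each side for the gene counts and bodies from the gene records for the peak and overlap counts. Scaling by the most frequent backgrounds, or taking the highest promoter peak of each list (also added later), left every promoter ratio inside its interval. These intervals are wide, so that this says little. The first moved Socs4 from 1.16 to 0.992 and the second moved Socs2 from 0.746 to 1.08, each across 1. At Socs3, Socs4, Socs5 and Socs7 the highest peaks were the overlapping pair itself, so the second could not move the ratio. No paired analysis was possible because neither genotype has a second ChIP library.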
